A study of Mus musculus with 3 samples.

Results

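Single-nucleus RNA sequencing of whole mouse hearts at embryonic day 9.5 gave a small group of endothelial nuclei with transcripts of Etv2, Kit, Grin2c or Mrc1, and these nuclei are described here in 3 genotypes. The mutated gene is Slc8a1, called Ncx1 in the names of the genotypes. The hearts were homozygous mutant (Ncx1-/-), heterozygous (Ncx1+/-) or wild type (Ncx1+/+). For each genotype, 5 frozen hearts were pooled and 1 library was made from the pool, so no genotype has a replicate. No test between genotypes was possible, and intervals below are 95% intervals of counting error only. The part of Slc8a1 that is deleted, the strain and any other alleles are not given in the sources used here.

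A nucleus counted as endothelial when it had at least 500 detected genes and unique molecular identifiers (UMIs) of at least 4 of 11 endothelial genes: Pecam1, Cdh5, Kdr, Tek, Tie1, Emcn, Flt1, Egfl7, Ptprb, Erg and Eng. It was then selected when UMIs of at least 2 of the 4 genes Grin2c, Etv2, Kit and Mrc1 were present. This number also had to be above that of each of 7 other sets of 4 genes, chosen to mark other endothelial and cushion nuclei. Some of the other sets are also read in cardiomyocyte nuclei, as given below. The rule gave 389 nuclei of 7645 endothelial nuclei and of 38192 nuclei in all. They are called Etv2/Kit/Grin2c nuclei below, after the genes of the rule. The rule came from a clustering of these same nuclei, so levels of its genes, and all differences from the other endothelial nuclei, describe the selection and were not tested.

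Etv2 is an ETS-family transcription factor that starts the programme of endothelial and blood progenitors in the early embryo and is then switched off as endothelium matures. Kit is the receptor tyrosine kinase for stem cell factor and is known from blood progenitors, germ cells and some endothelial cells. Grin2c encodes a subunit of the NMDA type of glutamate receptor, best known from the cerebellum. Mrc1 encodes the mannose receptor of macrophages and of sinusoidal and lymphatic endothelium. Klf10 is a transcription factor induced by TGF-beta, and Egln3 is an oxygen-sensing prolyl hydroxylase whose own gene is induced in hypoxia. In mm10 coordinates, Etv2 is at chr7:30633616-30635852 (minus strand), Kit at chr5:75574916-75656722 (plus), Grin2c at chr11:115249169-115267243 (minus), Mrc1 at chr2:14229392-14332057 (plus), Klf10 at chr15:38291463-38300706 (minus) and Egln3 at chr12:54178981-54203860 (minus), and all 6 are protein-coding.

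The deposited tables held 12525 barcodes and 52985283 UMIs for Ncx1-/-, 12563 barcodes and 49022310 UMIs for Ncx1+/-, and 13805 barcodes and 59898298 UMIs for Ncx1+/+. The Etv2/Kit/Grin2c nuclei carried 1236627, 431397 and 418439 UMIs in Ncx1-/-, Ncx1+/- and Ncx1+/+. Their median was 4511, 4932 and 5952 UMIs per nucleus in that order of genotypes, so the Ncx1-/- nuclei were the shallowest. Of 38893 barcodes, 144 occurred in 2 libraries, and 6 of the selected nuclei carried such a barcode. Cardiomyocyte RNA was present in many endothelial nuclei: UMIs of at least 6 of 12 cardiomyocyte genes were found in 56.1%, 41.5% and 45.7% of Etv2/Kit/Grin2c nuclei in Ncx1-/-, Ncx1+/- and Ncx1+/+, and in 59.5%, 48.2% and 50.7% of the other endothelial nuclei. Results that move with this RNA are given below also for the 104, 48 and 38 selected nuclei with fewer than 6 of these genes.

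The targeted gene was low in the nuclei labelled Ncx1-/-. Slc8a1, the sodium-calcium exchanger of heart muscle, stood at 215 CPM (the gene's UMIs as a depth-scaled share of all UMIs summed over the selected nuclei) in Ncx1-/-, 1064 CPM in Ncx1+/- and 836 CPM in Ncx1+/+. The ratio of Ncx1-/- to Ncx1+/+ was 0.257 (0.218 to 0.302). Cardiomyocyte nuclei held 1242, 8601 and 16259 CPM of Slc8a1 in Ncx1-/-, Ncx1+/- and Ncx1+/+, so both kinds of nuclei were lowest in Ncx1-/-, but the order of Ncx1+/- and Ncx1+/+ differed. The part of cardiomyocyte RNA in the levels of the selected nuclei was not tested. In Ncx1+/+, 50.3% of the Slc8a1 UMIs of the selected nuclei came from 1 nucleus. With at least 3 of the 4 genes required, 52, 8 and 11 nuclei remained and the log2 ratio of Ncx1-/- to Ncx1+/+ turned to 0.68.

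Etv2/Kit/Grin2c nuclei were a larger share of the endothelium in the Ncx1-/- library than in either other library. They numbered 237 of 2244 endothelial nuclei in Ncx1-/-, 82 of 2497 in Ncx1+/- and 70 of 2904 in Ncx1+/+. These are shares of 10.6% (exact binomial interval 9.32 to 11.9), 3.28% (2.62 to 4.06) and 2.41% (1.88 to 3.04). The Ncx1-/- interval lay above both others, whereas the Ncx1+/- and Ncx1+/+ intervals overlapped. Since the rule counts detected genes, nuclei were also thinned to 2000 UMIs each and the rule was applied again. Of the endothelial nuclei, 93, 92 and 63 in Ncx1-/-, Ncx1+/- and Ncx1+/+ were too shallow and were left out. After thinning 1700, 1963 and 2251 nuclei counted as endothelial, and thinned shares are of these. The share was then 6.29% in Ncx1-/-, 1.94% in Ncx1+/- and 1.42% in Ncx1+/+, in the same order. With Grin2c taken out of the rule it was 5.93%, 2.20% and 1.76%, and with at least 3 of the 4 genes required it was 2.32%, 0.320% and 0.379%. Among endothelial nuclei with fewer than 6 cardiomyocyte genes it was 11.4%, 3.69% and 2.65%. For background, 2 of 9089 cardiomyocyte nuclei in Ncx1-/-, 3 of 8658 in Ncx1+/- and 3 of 9298 in Ncx1+/+ had UMIs of 2 or more of the 4 genes. Nuclei selected in the same way by Cyp26a1, Pcdh17, Pak7 and St8sia4 also had their largest share in Ncx1-/-, at 3.43%, 1.20% and 0.792%. Those selected by Ebf3, Tbx5, Pde2a and Corin did too, at 10.6%, 6.25% and 6.85%. Each of the remaining sets had its smallest share in Ncx1-/-. A share of nuclei in a pool does not separate more of these cells from fewer cells of other kinds.

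**Figure D1:**
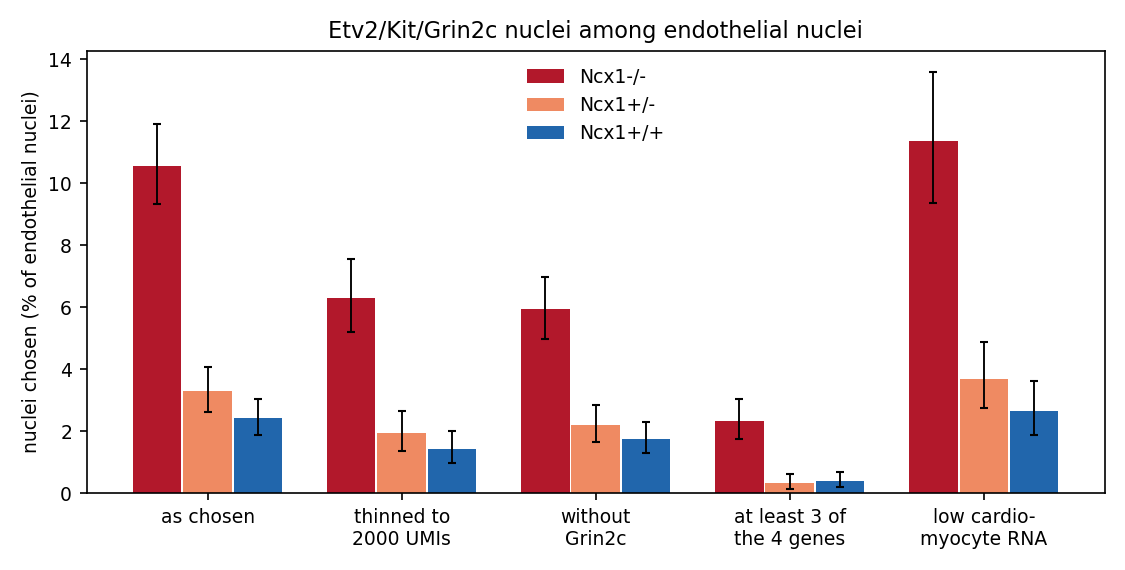
Share of Etv2/Kit/Grin2c nuclei among endothelial nuclei (y axis, percent) in the Ncx1-/-, Ncx1+/- and Ncx1+/+ libraries under the rule and 4 alternatives (x axis). Bars are shares of 1 library each and error bars exact binomial 95% intervals. The Ncx1-/- bar is the highest in each of the 5 settings, at 10.6% under the rule.

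Each gene of the rule was detected more widely in the Ncx1-/- endothelium. The share counts nuclei with these same genes, so it and their detection are not separate results. Over the nuclei that still counted as endothelial after thinning to 2000 UMIs, Kit was detected in 33.5% in Ncx1-/-, 20.7% in Ncx1+/- and 16.8% in Ncx1+/+. Grin2c was detected in 7.35%, 1.94% and 1.47%, Mrc1 in 6.24%, 3.11% and 2.84%, and Etv2 in 4.29%, 2.09% and 1.64% of nuclei in Ncx1-/-, Ncx1+/- and Ncx1+/+. Klf10 and Egln3, which the rule did not use, were also detected most often in Ncx1-/-, at 19.3%, 10.1% and 9.73% for Klf10 and 13.7%, 4.23% and 2.18% for Egln3 in the same order. Before thinning, cardiomyocyte nuclei, which should lack Etv2, held it in 0.308% of nuclei in Ncx1-/-, 0.219% in Ncx1+/- and 0.118% in Ncx1+/+, against 4.48%, 2.98% and 2.72% of the other endothelial nuclei. Cardiomyocyte nuclei had a median of 3584, 3367 and 3702 UMIs, and the other endothelial nuclei 4414, 4551 and 5291 UMIs, in Ncx1-/-, Ncx1+/- and Ncx1+/+.

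Apart from Kit, the genes of the rule were mostly read in different nuclei, and the selection is mostly a mixture of pairs with Kit. Kit was detected in 95.8% of the selected nuclei in Ncx1-/-, 98.8% in Ncx1+/- and 92.9% in Ncx1+/+. Kit with Grin2c and neither other gene made up 35.9%, 28.05% and 20% of the nuclei in Ncx1-/-, Ncx1+/- and Ncx1+/+, Kit with Mrc1 24.9%, 37.8% and 35.7%, and Kit with Etv2 13.5%, 23.2% and 21.4%. No single pair without Kit held more than 4.29% of the nuclei in any library. Etv2 was found in 29.96%, 29.3% and 34.3% of the selected nuclei, and 3 or 4 of the genes in 21.9%, 9.76% and 15.7%. Just outside the rule lay 137, 74 and 95 endothelial nuclei with at least 2 of the genes but as many or more of another set. Of these, 90, 52 and 55 were tied at 2 genes. A further 66, 47 and 35 nuclei had exactly 1 gene and none of the other sets. Rapgef5 stood at 1128, 1503 and 1538 CPM in the nuclei just inside the rule, with 2 genes and 1 of the next set, in Ncx1-/-, Ncx1+/- and Ncx1+/+. It stood at 1063, 1356 and 1113 CPM in nuclei tied at 2 genes and at 1427, 1309 and 1735 CPM in those with 1 gene, which in Ncx1-/- and Ncx1+/+ is above the nuclei inside the rule.

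Across all thinned endothelial nuclei, Kit was read somewhat more often in nuclei with another gene of the rule than in nuclei without it. Kit was detected in 39.7% of nuclei with Etv2 and 33.3% of nuclei without it in Ncx1-/-. The same values were 26.8% and 20.6% in Ncx1+/-, and 27.0% and 16.7% in Ncx1+/+, from only 73, 41 and 37 nuclei with Etv2 in Ncx1-/-, Ncx1+/- and Ncx1+/+, and the counting intervals of each pair overlapped. For Mrc1, Kit was detected in 46.2% of nuclei with it and 32.7% without it in Ncx1-/-, 34.4% and 20.3% in Ncx1+/-, and 25.0% and 16.6% in Ncx1+/+, with overlapping intervals in Ncx1+/+ only. For Grin2c, Kit was detected in 42.4% of nuclei with it and 32.8% without it in Ncx1-/-, 39.5% (24.0 to 56.6) and 20.4% (18.6 to 22.2) in Ncx1+/-, and 27.3% and 16.7% in Ncx1+/+, with intervals that were apart in Ncx1+/- only. Grin2c and Etv2 were found together in 6, 2 and 1 of the 1700, 1963 and 2251 thinned nuclei in Ncx1-/-, Ncx1+/- and Ncx1+/+. Etv2 was detected in 4.80% of nuclei with Grin2c and 4.25% without it in Ncx1-/-, 5.26% and 2.03% in Ncx1+/-, and 3.03% and 1.62% in Ncx1+/+, with overlapping intervals. At such low detection few joint nuclei can be seen, so whether 1 cell type carries Etv2, Kit and Grin2c together cannot be told from these counts. Selected nuclei with and without Grin2c held 6652 and 6072 CPM of the hypoxia and glycolysis list described below in Ncx1-/-, 4304 and 3428 CPM in Ncx1+/-, and 2141 and 2587 CPM in Ncx1+/+.

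**Figure D2:**
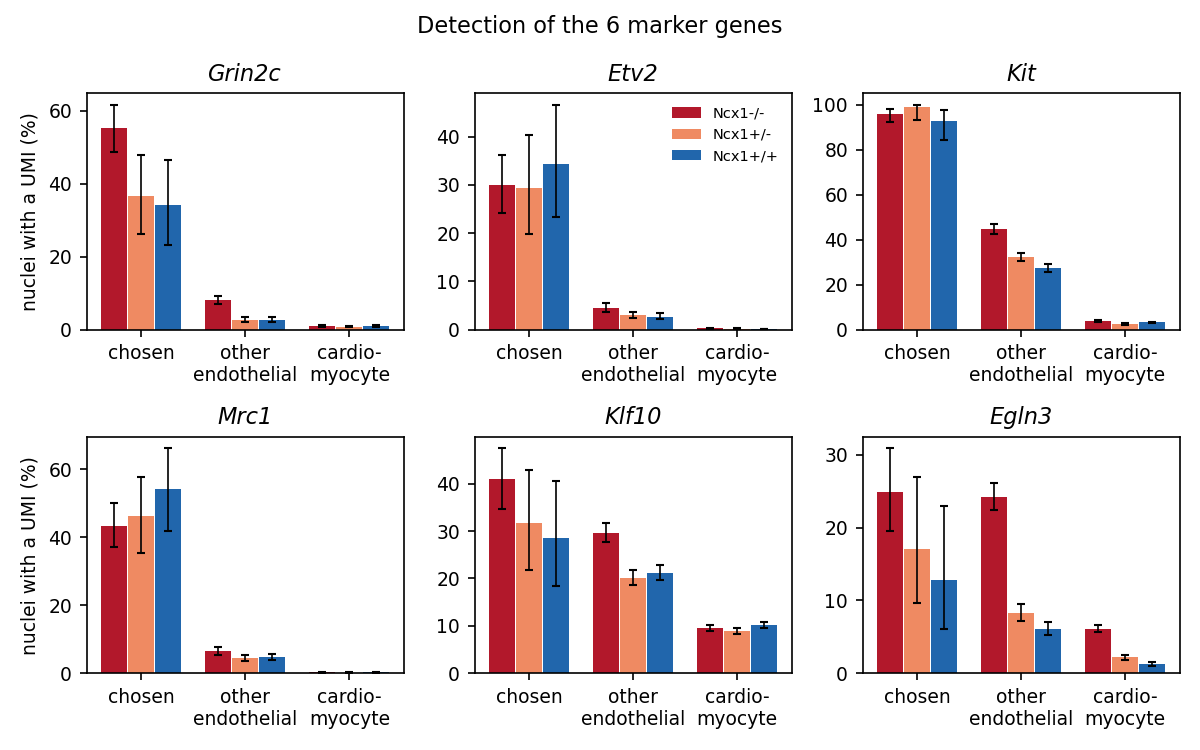
Percent of nuclei with a UMI (y axis) of the 6 marker genes in Etv2/Kit/Grin2c nuclei (chosen), other endothelial nuclei and cardiomyocyte nuclei (x axis) of the Ncx1-/-, Ncx1+/- and Ncx1+/+ libraries. Bars are shares of 1 library, error bars exact binomial 95% intervals. Detection of Grin2c, Etv2, Kit and Mrc1 in the chosen nuclei follows from the rule. Egln3 was in 24.9% of chosen and 24.2% of other endothelial nuclei in Ncx1-/-.

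The selected nuclei were endothelial by genes that the rule did not use. Of 20 further endothelial genes, among them the junction gene Esam, the transcription factors Sox7, Sox17 and Fli1 and the receptor Adgrl4, the summed level was 2682 CPM in Ncx1-/-, 2448 CPM in Ncx1+/- and 3126 CPM in Ncx1+/+. Other endothelial nuclei held 1964, 2001 and 1953 CPM, and cardiomyocyte nuclei 168, 181 and 201 CPM. Fli1 alone gave 751, 712 and 1049 CPM of the sum in the selected nuclei. Of the 20 genes, all but Cldn5 and Lmo2 were above cardiomyocyte nuclei in each library. Cldn5 was at 0 in Ncx1+/-. Lmo2 stood at 15.4, 23.2 and 33.5 CPM in the selected nuclei, against 11.6, 28.4 and 33.1 CPM in cardiomyocyte nuclei. Despite Mrc1, no selected nucleus had UMIs of 2 other macrophage genes. Of the 19 macrophage genes, Csf1r, Ptprc, Adgre1, Tyrobp, C1qa, C1qb, C1qc, Aif1, Ctss, Fcgr3, Itgam, Spi1, Pf4 and Timd4 were at 0 in the selected nuclei of all 3 libraries. The blood-forming factors Gfi1, Gfi1b, Myb and Spi1 were at 0 as well, and Runx1 was at 0 in Ncx1+/- and Ncx1+/+. Of the 10 mast cell and myeloid genes, Cpa3, Mcpt4, Mpo, Elane and Cd33 were at 0 in all 3 libraries, and the list, which holds Kit, summed to 419, 385 and 306 CPM. Of the 8 neural crest genes, Sox10, Foxd3, Tfap2a and Tfap2b were at 0 in all 3, and the list summed to 743, 728 and 727 CPM in the selected nuclei, against 375, 402 and 366 CPM in the other endothelial nuclei. Kit, at 415, 385 and 301 CPM, and Ets1, a factor also of endothelium, at 321, 341 and 416 CPM, made up nearly all of it. Of the 7 germ cell genes, Dppa3 and Nanos3 were at 0 in all 3, and Pou5f1, Ddx4, Prdm1 and Dnd1 stood at no more than 5.66 CPM in any library.

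Set against the other endothelial nuclei of the same library, the selected nuclei differed in few genes. A gene was called higher when its ratio was at least 1.5 with the counting interval above 1 in each of the 3 libraries, and lower by the mirror rule. Of 6578 genes with at least 50 counts in the selected nuclei, out of 27998 genes in the tables, 16 were called higher (0.243%) and 59 lower (0.897%). The 16 include the 4 genes of the rule, and the other 12 were not used by it.

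Of the 16 measured genes among the 20 further endothelial genes and of 12 measured arterial genes, 0 were called higher than in the other endothelial nuclei, and of 10 venous and lymphatic genes 2 were, Mrc1 of the rule and Flt4. Flt4, the VEGF-C receptor of venous and lymphatic endothelium, stood at 54.2, 55.6 and 47.8 CPM in Etv2/Kit/Grin2c nuclei of Ncx1-/-, Ncx1+/- and Ncx1+/+, against 31.7, 20.4 and 21.6 CPM in the other endothelial nuclei. The selected nuclei were higher in each library, by 1.71-fold (1.30 to 2.23), 2.72-fold (1.71 to 4.15) and 2.21-fold (1.33 to 3.46). Rapgef5, an exchange factor for Rap GTPases, stood at 1249, 1419 and 1580 CPM, against 813, 847 and 728 CPM in the other endothelial nuclei. Col23a1, a transmembrane collagen, stood at 953, 1094 and 1233 CPM, against 625, 556 and 594 CPM. Dysf, a membrane-repair protein, stood at 419, 387 and 502 CPM, against 244, 250 and 243 CPM. For these 3 genes too, the selected nuclei were the higher in all 3 libraries. For comparison, the 635 endothelial nuclei selected in the same way by Sema4d, Hs3st4, Kcnq1 and Col26a1 held 54.2, 41.9 and 46.6 CPM of Flt4, 1389, 1303 and 1300.5 CPM of Rapgef5, 1408, 1269 and 1502 CPM of Col23a1 and 413, 381 and 355 CPM of Dysf in Ncx1-/-, Ncx1+/- and Ncx1+/+.

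The cell adhesion gene Opcml reached 344, 392 and 421 CPM in the selected nuclei of Ncx1-/-, Ncx1+/- and Ncx1+/+, against 164, 210 and 259 CPM in the other endothelial nuclei. The tyrosine phosphatase gene Ptpre reached 111, 95.04 and 100.4 CPM, against 59.3, 51.3 and 38.7 CPM. Gimap6, a GTPase gene known from lymphocytes and endothelium, reached 61.5, 76.5 and 93.2 CPM, against 33.8, 47.1 and 45.3 CPM. Klf10 reached 141.5, 92.7 and 83.6 CPM, against 88.1, 52.7 and 51.4 CPM. The Sema4d nuclei held 123, 91.4 and 83.3 CPM of Ptpre and 111, 70.4 and 73.3 CPM of Klf10 in the same order. These levels too are above the other endothelial nuclei in each library. Also called higher were Dpp4, a cell-surface peptidase, Tead4, a partner of the YAP coactivator, and Csgalnact1, an enzyme of chondroitin sulfate synthesis, with ratios between 1.55 and 1.83 in all 3 libraries.

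Cardiomyocyte RNA moved with this difference: the 12 cardiomyocyte genes summed to 6622, 5531 and 4739 CPM in the selected nuclei of Ncx1-/-, Ncx1+/- and Ncx1+/+, against 10161, 8135 and 8333 CPM in the other endothelial nuclei. The rule itself can leave out nuclei with cardiomyocyte RNA. Its set of Fam155a, Ccdc141, Syndig1 and Adamts19 summed to 2382, 2300 and 2311 CPM in cardiomyocyte nuclei, against 870, 1037 and 1182 CPM in the other endothelial nuclei. The sets with Sema4d, Dkk2 and Cyp26a1 were lower in cardiomyocyte nuclei in each library. The part of the rule in the difference was not tested. All 12 genes called higher stood below the selected nuclei in cardiomyocyte nuclei in each library. Among nuclei with fewer than 6 cardiomyocyte genes, 10 genes were called higher, the 4 of the rule among them, and 8 lower. Of the 12 only Flt4 and Opcml were still called. Flt4 then stood at 82.1, 69.6 and 60.7 CPM in the selected nuclei of Ncx1-/-, Ncx1+/- and Ncx1+/+, against 49.0, 25.9 and 25.0 CPM in the other endothelial nuclei. Klf10 then stood at 157, 69.6 and 65.3 CPM, against 136, 61.5 and 55.9 CPM.

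**Figure D3:**
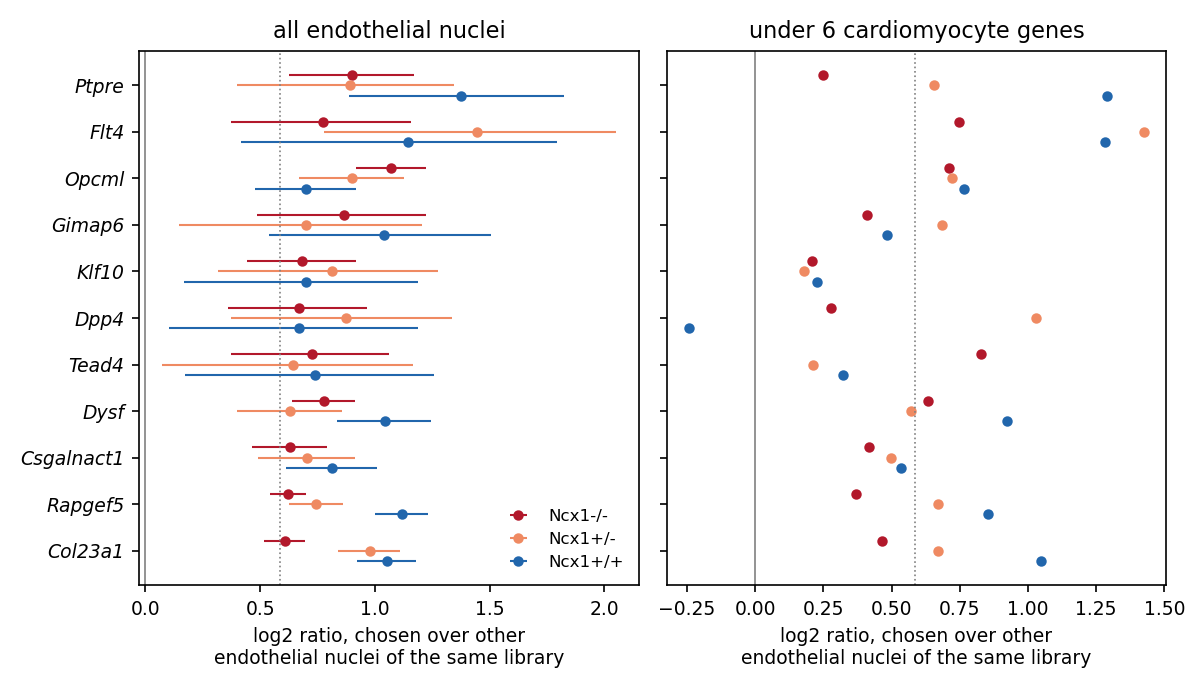
Log2 ratio of summed CPM, Etv2/Kit/Grin2c nuclei over other endothelial nuclei of the same library (x axis), for 11 genes called higher that the rule did not use. Points are 1 library each (Ncx1-/-, Ncx1+/- and Ncx1+/+), bars in the left panel are 95% counting intervals and the dotted line marks 1.5-fold. The right panel repeats the ratios, without intervals, for nuclei with fewer than 6 cardiomyocyte genes, where 9 of the 11 genes have a library below the dotted line or an interval that reaches 1.

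Of the 10 lowest genes against the other endothelial nuclei, 9 were higher in cardiomyocyte nuclei than in the selected nuclei in each library. They include the potassium channel gene Kcnh7, the muscle scaffold gene Sorbs2, the chromatin factor gene Dpf3 and the endothelin receptor gene Ednra. Unc5c, a netrin receptor, was the lowest, at 43.7, 83.4 and 52.6 CPM in the selected nuclei of Ncx1-/-, Ncx1+/- and Ncx1+/+, against 169, 283 and 383 CPM in the other endothelial nuclei and 187, 234 and 262 CPM in cardiomyocyte nuclei. In Ncx1+/+, 54.5% of its UMIs in the selected nuclei came from 1 nucleus. Glis3, a zinc finger transcription factor, was the gene among the 10 that was not. It stood at 17.8, 44.0 and 45.4 CPM, against 59.7, 125 and 114 CPM in the other endothelial nuclei and 9.87, 13.3 and 15.3 CPM in cardiomyocyte nuclei. The rule can also lower cardiomyocyte RNA in the selected nuclei, as given above. The minimum of 50 counts in the selected nuclei itself removes genes that are low there. With at least 50 counts expected from the level over all endothelial nuclei, a filter chosen after seeing the data, 7 of the 10 lowest genes were higher in cardiomyocyte nuclei in each library. The exceptions were then Glis3, Egflam, a matrix protein, at 11.3, 18.5 and 21.5 CPM against 28.5, 42.4 and 45.4 CPM in the other endothelial nuclei, and Igfbp7, a secreted endothelial protein, at 11.3, 11.6 and 11.9 CPM against 23.4, 42.4 and 49.1 CPM. None of the 10 genes first named had 50 counts in the selected nuclei with fewer than 6 cardiomyocyte genes.

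Beside the 130 endothelial nuclei that the same rule selects by Cyp26a1, Pcdh17, Pak7 and St8sia4, the Etv2/Kit/Grin2c nuclei held less RNA of arterial genes. The 18 arterial genes, such as Efnb2, Dll4 and Hey1, summed to 1864, 1859 and 1986 CPM in the Etv2/Kit/Grin2c nuclei of Ncx1-/-, Ncx1+/- and Ncx1+/+, against 3142, 2760 and 3365 CPM in the Cyp26a1 nuclei. The 21 endocardial genes summed to 8934, 12434 and 15214 CPM, against 6914, 10065 and 9884 CPM. Among 635 nuclei selected by Sema4d, Hs3st4, Kcnq1 and Col26a1, the endocardial sum was 9401, 12911 and 13335 CPM and the arterial sum 2041, 1960 and 1963 CPM. Etv2 was detected in 0 of 77, 0 of 30 and 0 of 23 Cyp26a1 nuclei, which allows shares of up to 3.90%, 10.0% and 13.0%, and in 5.19%, 3.69% and 3.53% of the Sema4d nuclei, in Ncx1-/-, Ncx1+/- and Ncx1+/+.

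Between genotypes, a gene was called higher in Ncx1-/- when its CPM in the selected nuclei was at least 1.5 times that of both other libraries with both counting intervals above 1, and lower by the mirror rule. Of the 6578 measured genes, 212 were called higher (3.22%) and 127 lower (1.93%), together 5.15% of the genes. The medians of the log2 ratio over all measured genes were 0.05 against Ncx1+/+ and 0.01 against Ncx1+/-. The same rule in the other endothelial nuclei called 301 of these genes higher (4.58%) and 199 lower (3.03%). Called in both were 100 genes higher, which are 47.2% of the calls in the Etv2/Kit/Grin2c nuclei and 33.2% of those in the other nuclei, and 77 genes lower, which are 60.6% and 38.7%. No gene was called in opposite directions. The Ncx1-/- library stood apart in its share of Malat1. Malat1, a nuclear long noncoding RNA, took 5.15% of the UMIs of the selected nuclei in Ncx1-/-, 2.99% in Ncx1+/- and 2.28% in Ncx1+/+, and 5.56%, 2.95% and 2.81% of those of the other endothelial nuclei. Its part in the genotype calls was not tested. With 1 library per genotype these calls describe libraries: for comparison, the Ncx1+/- nuclei set against the Ncx1+/+ nuclei gave 296 genes above (4.50%) and 196 below (2.98%) by the same thresholds on 1 ratio. In the selected nuclei with fewer than 6 cardiomyocyte genes, 105 of 3818 measured genes were called higher and 96 lower. With nuclei thinned to 2000 UMIs, only 1777 genes were measured, of which 28 were called higher and 32 lower.

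Of the gene lists examined, that of hypoxia and glycolysis held the most higher genes. Low oxygen stabilises HIF transcription factors, which bind a short core motif and raise glucose uptake, glycolysis and lactate export. Of 40 genes in this list, 33 were measured, 19 were called higher in Ncx1-/- and 0 lower. Over all measured genes, 3.22% were called higher and 1.93% lower. Their median log2 ratio was 1.51 against Ncx1+/+ and 0.77 against Ncx1+/-, beside 0.05 and 0.01 over all measured genes. The summed level of the list was 6399 CPM in Ncx1-/-, 3755 CPM in Ncx1+/- and 2442 CPM in Ncx1+/+.

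Genes of glucose uptake, its first step and lactate output were among the 19. Slc2a1, the main glucose transporter of endothelium, stood at 319 CPM in Ncx1-/-, 141 CPM in Ncx1+/- and 83.6 CPM in Ncx1+/+. This is 3.81-fold (2.69 to 5.55) higher in Ncx1-/- than in Ncx1+/+ and 2.25-fold (1.72 to 3.001) higher than in Ncx1+/-. Hk2, the hexokinase that traps glucose in the cell, stood at 609, 281 and 160 CPM in Ncx1-/-, Ncx1+/- and Ncx1+/+. Ldha, which turns pyruvate into lactate, stood at 471, 239 and 215 CPM. Each of these genes was highest in Ncx1-/- and lowest in Ncx1+/+.

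Pdk1, Bnip3 and P4ha1 followed the same order. Pdk1, a kinase that inhibits pyruvate dehydrogenase in mitochondria, stood at 217, 64.9 and 28.7 CPM in Ncx1-/-, Ncx1+/- and Ncx1+/+. This is 7.56-fold (4.26 to 14.8) higher in Ncx1-/- than in Ncx1+/+. Bnip3, a mitophagy receptor, stood at 89.8, 48.7 and 11.95 CPM. P4ha1, a collagen prolyl hydroxylase, stood at 470, 283 and 93.2 CPM. The enzyme genes Aldoa, Tpi1, Pgk1, Pgam1, Eno1, Pkm, Pfkl, Pfkp and Gapdh were all called higher too, as were Slc2a3, Slc16a3, Mxi1 and Higd1a.

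The regulators themselves were not called. Hif1a stood at 301, 301 and 253 CPM in Ncx1-/-, Ncx1+/- and Ncx1+/+, Epas1 at 45.3, 44.0 and 47.8 CPM, and Arnt at 139.9, 123 and 148 CPM. Egln3 was not called, because the interval of its ratio to Ncx1+/- reached 1: it stood at 55.8 CPM in Ncx1-/-, 37.1 CPM in Ncx1+/- and 23.9 CPM in Ncx1+/+, with ratios of 1.504 (0.864 to 2.78) to Ncx1+/- and 2.33 (1.20 to 5.08) to Ncx1+/+. Vegfa, the endothelial growth factor, stood at 138, 102 and 23.9 CPM and was not called either, since Ncx1+/- lay near Ncx1-/-.

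The other endothelial nuclei held the same direction. In the other endothelial nuclei 30 of the same 33 genes were called higher, where 4.58% of all measured genes were. The medians were 1.43 against Ncx1+/+ and 1.07 against Ncx1+/-. The list summed to 7181, 3584 and 2865 CPM in Ncx1-/-, Ncx1+/- and Ncx1+/+. Cardiomyocyte nuclei held 9034, 6439 and 5788 CPM of the list, and their RNA moves with the genotype difference. Among the selected nuclei with fewer than 6 cardiomyocyte genes, 23 of the list were measured, 15 were called higher and 0 lower, with medians of 1.88 and 1.06. Of all 3818 genes measured there, 105 were called higher and 96 lower. Slc2a1 stood there at 256, 87.0 and 56.0 CPM, and Pdk1 at 190.1, 78.3 and 23.3 CPM, in Ncx1-/-, Ncx1+/- and Ncx1+/+.

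**Figure D4:**
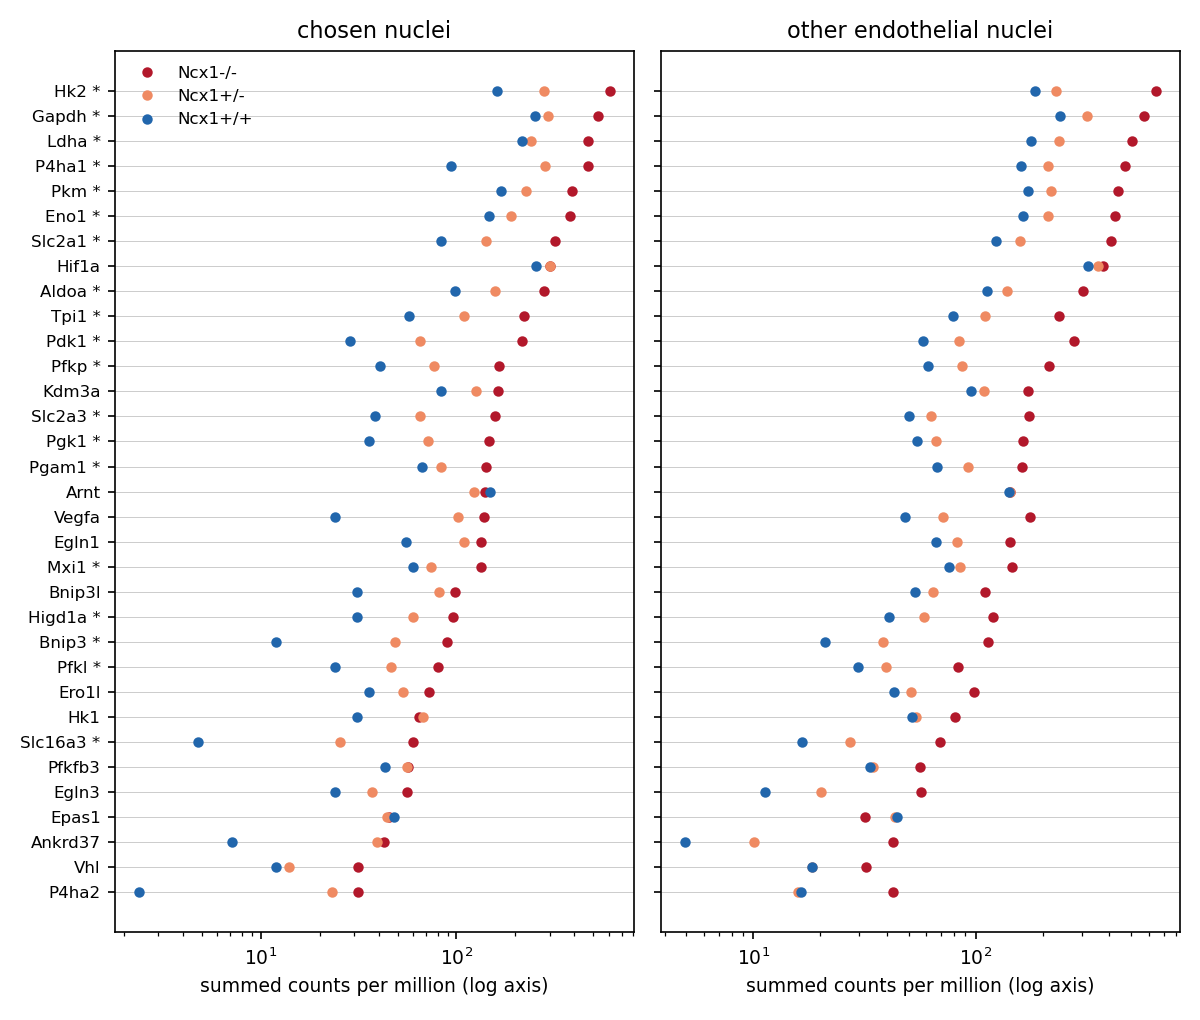
Summed CPM (x axis, log scale) of the 33 measured genes of the hypoxia and glycolysis list (y axis) in Etv2/Kit/Grin2c nuclei (left) and other endothelial nuclei (right) of the Ncx1-/-, Ncx1+/- and Ncx1+/+ libraries, 1 point per library. An asterisk marks the 19 genes called higher in Ncx1-/- in the left panel. Hif1a, Epas1 and Arnt have their 3 points close together.

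Promoters are shown because 19 of the 33 measured genes were called in 1 direction and the HIF core motif is short. The letters ACGTG and GCGTG were searched on both strands of RefSeq promoters of build GRCm38.p6, each from 250 bases before to 50 after a gene's start. At least 1 of the motifs was found in 43.8% of all 32851 promoters. Of the 19 genes called higher, 18 had an entry, with 27 promoters, of which 22 (81.5%) held a motif. The genes come from a list of hypoxia and glycolysis genes, so this share tells nothing about these nuclei. Some of the 27 promoters are overlapping windows of the same gene, and base composition was not matched. A run of CACGTG matches on both strands, and the motifs differ in their first letter only. Of the 5 marker genes with an entry, Egln3 and Kit had a motif and Etv2, Grin2c and Mrc1 had none, which says only that these letters are not in this window. The sequences below run 5′ to 3′ on the strand of the gene, with matches on either strand in capitals, for Egln3 at chr12:54203825-54204124 (minus strand), Pdk1 at chr2:71872974-71873273 (plus strand), Bnip3 at chr7:138909457-138909756 (minus strand) and, without a match, Grin2c at chr11:115267194-115267493 (minus strand).
Egln3: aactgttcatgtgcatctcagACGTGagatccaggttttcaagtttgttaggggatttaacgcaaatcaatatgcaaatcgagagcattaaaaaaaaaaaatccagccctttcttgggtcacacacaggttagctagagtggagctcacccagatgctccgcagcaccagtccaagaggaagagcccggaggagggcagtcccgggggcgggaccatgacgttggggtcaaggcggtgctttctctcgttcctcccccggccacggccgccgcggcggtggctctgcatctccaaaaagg
Pdk1: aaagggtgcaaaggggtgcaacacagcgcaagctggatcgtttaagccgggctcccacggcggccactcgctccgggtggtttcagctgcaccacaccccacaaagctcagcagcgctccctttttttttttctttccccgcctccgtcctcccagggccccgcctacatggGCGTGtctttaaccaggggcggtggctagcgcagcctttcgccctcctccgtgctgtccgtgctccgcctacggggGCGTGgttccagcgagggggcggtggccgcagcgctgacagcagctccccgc
Bnip3: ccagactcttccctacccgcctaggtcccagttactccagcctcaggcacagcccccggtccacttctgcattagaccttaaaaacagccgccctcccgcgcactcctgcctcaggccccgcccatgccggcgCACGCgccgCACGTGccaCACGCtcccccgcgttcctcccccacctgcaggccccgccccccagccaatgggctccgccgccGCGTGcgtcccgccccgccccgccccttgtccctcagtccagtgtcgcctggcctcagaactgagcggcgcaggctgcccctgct
Grin2c: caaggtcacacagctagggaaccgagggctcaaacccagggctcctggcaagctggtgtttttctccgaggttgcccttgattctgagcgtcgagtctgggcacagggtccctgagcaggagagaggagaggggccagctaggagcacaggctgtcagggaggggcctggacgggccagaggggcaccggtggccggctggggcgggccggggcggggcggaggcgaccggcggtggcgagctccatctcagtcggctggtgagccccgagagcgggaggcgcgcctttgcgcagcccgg

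In the Ncx1-/- selection the 12 genes with the largest ratios to both other libraries included Bmpr1b, Tenm4, Cox6a2, Atcayos, Slc16a12, Trappc6a, Pdk1, Nav2, Tmem163, Ak4 and Mrps33. The minimum of 50 counts is summed over the libraries, and Ncx1-/- holds the most UMIs, so genes can pass mainly through Ncx1-/-. Bmpr1b had 50, 3 and 3 counts in Ncx1-/-, Ncx1+/- and Ncx1+/+, Tenm4 47, 3 and 2, and Cox6a2 46, 3 and 3. In Ncx1-/-, 38% of the Bmpr1b UMIs came from 1 nucleus. Of the 12 genes, 11 were higher in cardiomyocyte nuclei than in the selected nuclei of Ncx1-/-, and 12 in those of Ncx1+/- and of Ncx1+/+. Cox6a2, a muscle subunit of cytochrome oxidase, stood at 37.2, 6.95 and 7.17 CPM in Ncx1-/-, Ncx1+/- and Ncx1+/+ and at 74.1, 48.6 and 36.4 CPM in cardiomyocyte nuclei. Nav2, a cytoskeletal guidance gene, stood at 192, 62.6 and 50.2 CPM and at 940, 576 and 570 CPM in cardiomyocyte nuclei. Among the selected nuclei with fewer than 6 cardiomyocyte genes only Pdk1 of the 12 was called, and the other 11 did not reach 50 counts. The 12 cardiomyocyte genes themselves summed to 6622 CPM in Ncx1-/-, 5531 CPM in Ncx1+/- and 4739 CPM in Ncx1+/+, and Myh7, Nkx2-5 and Ryr2 of them were called higher and Slc8a1 lower. What part cardiomyocyte RNA has in the genes with the largest ratios was not tested.

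Nrg1, Tbx20, Adgrg6 and Tgfb2 of the endocardial list were lower in Ncx1-/-, and 14 measured genes of the list were not called. The endocardium lines the heart chambers and signals to the muscle, in part through neuregulin. Of 21 genes in the list, 18 were measured, 4 were called lower and 0 higher, where 1.93% of all measured genes were called lower, with a median log2 ratio of -0.54 against Ncx1+/+ and -0.39 against Ncx1+/-. The list summed to 8934 CPM in Ncx1-/-, 12434 CPM in Ncx1+/- and 15214 CPM in Ncx1+/+. Nrg1, the neuregulin that drives growth of the trabecular muscle, stood at 559 CPM in Ncx1-/-, 1314 CPM in Ncx1+/- and 2557 CPM in Ncx1+/+. Its ratio was 0.218 (0.198 to 0.241) to Ncx1+/+ and 0.425 (0.380 to 0.476) to Ncx1+/-, so the 3 libraries stood apart from each other.

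Tbx20, a T-box factor needed for endocardium and muscle, stood at 368, 784 and 760 CPM in Ncx1-/-, Ncx1+/- and Ncx1+/+. Adgrg6, an adhesion receptor of the endocardium, stood at 285, 554 and 695 CPM, and Tgfb2, a ligand of cushion formation, at 121, 239 and 284 CPM. For these 3 genes Ncx1+/- and Ncx1+/+ lay close to each other and Ncx1-/- below both. Nfatc1, an endocardial transcription factor, was not called, at 328, 343 and 402 CPM, nor was the flow-responsive factor Klf2, at 175, 148 and 191 CPM. In the other endothelial nuclei 6 of the same 18 genes were called lower, where 3.03% of all measured genes were, with medians of -0.57 and -0.48. In the selected nuclei with fewer than 6 cardiomyocyte genes 5 of 18 were called lower, beside 96 of all 3818 genes measured there, and Nrg1 stood at 577, 1552 and 2632 CPM.

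**Figure D5:**
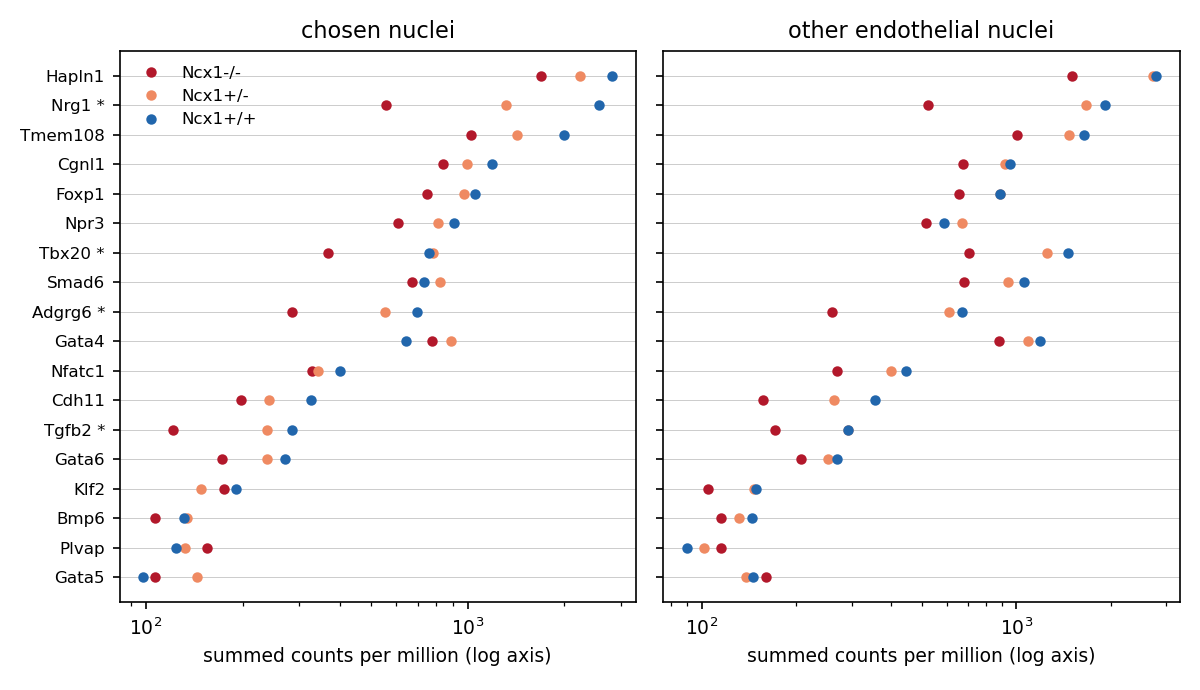
Summed CPM (x axis, log scale) of the 18 measured genes of the endocardial list (y axis) in Etv2/Kit/Grin2c nuclei (left) and other endothelial nuclei (right) of the Ncx1-/-, Ncx1+/- and Ncx1+/+ libraries, 1 point per library. An asterisk marks Nrg1, Tbx20, Adgrg6 and Tgfb2, which were called lower in Ncx1-/- in the left panel.

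The lowest genes in Ncx1-/- by the ratio to both other libraries were Col3a1, Hivep3, Tnc, Slc8a1, Tmeff2, Megf9, Nrk, Samd5, Slit2, Lrig1, Dock10 and Glis3. Col3a1, a fibrillar collagen of the cushions, stood at 12.9 CPM in Ncx1-/-, 76.5 CPM in Ncx1+/- and 141 CPM in Ncx1+/+, with a ratio of 0.0918 (0.0493 to 0.162) to Ncx1+/+. Slit2, a guidance ligand for Robo receptors, stood at 260.4, 691 and 1295 CPM. Lrig1, a feedback inhibitor of growth factor receptors, stood at 69.5, 176 and 261 CPM, and Samd5 at 51.8, 144 and 241 CPM. Each of the 4 was lowest in Ncx1-/- and highest in Ncx1+/+. Among the selected nuclei with fewer than 6 cardiomyocyte genes 5 of the 12 were called lower, among them Col3a1, Slit2, Lrig1 and Samd5, and the other 7 did not reach 50 counts. Hivep3, a zinc finger gene, was called in the selected nuclei at 7.28, 41.7 and 62.1 CPM but not in the other endothelial nuclei, at 17.3, 25.3 and 19.9 CPM, and the difference between these contrasts was not tested.

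Of 16 measured genes among the 20 further endothelial genes, 3 were called higher and 0 lower, where 3.22% of all measured genes were called higher and 1.93% lower. These were Sox17, an arterial transcription factor, at 111, 53.3 and 31.1 CPM in Ncx1-/-, Ncx1+/- and Ncx1+/+, its relative Sox7 at 130, 78.8 and 78.9 CPM, and the adhesion gene Icam2 at 156, 90.4 and 83.6 CPM. Of 12 measured arterial genes only Sox17 was called. Of 10 venous and lymphatic genes, Nr2f2, which specifies veins, was higher at 272, 130 and 155 CPM, and Emcn, a sialomucin that the rule also uses, was lower at 272, 410 and 593 CPM. Among nuclei with fewer than 6 cardiomyocyte genes, Icam2 was still called and Sox7 and Sox17 were not.

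Genes of blood and endothelial progenitors held 2 calls, in opposite directions. Of the 14 measured, where 5.15% of all measured genes were called in either direction, Sox7 was higher and Meis1, a homeobox factor, was lower, at 527, 932 and 934 CPM in Ncx1-/-, Ncx1+/- and Ncx1+/+. Etv2 itself stood at 70.4 (56.3 to 86.8), 62.6 (41.2 to 91.1) and 69.3 (46.4 to 99.5) CPM in Ncx1-/-, Ncx1+/- and Ncx1+/+, with overlapping intervals in nuclei chosen partly for it. Tal1, a target of Etv2, stood at 83.3, 46.4 and 86.0 CPM, and Fli1 at 751, 712 and 1049 CPM. None of 13 measured ETS factors was called. Kit stood at 415, 385 and 301 CPM, and of 18 measured genes of Kit signalling none was higher, while Kitl, the Kit ligand, was lower at 97.0, 174 and 232 CPM and the adaptor Gab2 was lower at 799.8, 1224 and 1247 CPM. Mrc1 stood at 135, 137 and 155 CPM. Grin2c, at 133, 83.4 and 64.5 CPM, was the only one of 4 measured glutamate receptor genes called higher, in nuclei chosen partly for it.

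Klf10 was called higher in Ncx1-/-, at 141.5 (121 to 164), 92.7 (66.2 to 126) and 83.6 (58.3 to 116) CPM in Ncx1-/-, Ncx1+/- and Ncx1+/+. The ratio was 1.69 (1.17 to 2.51) to Ncx1+/+ and 1.53 (1.08 to 2.21) to Ncx1+/-, and the other endothelial nuclei were called in the same direction at 88.1, 52.7 and 51.4 CPM. Among 19 measured genes of BMP and TGF-beta signalling it was the only one higher, and Bmper, a BMP modulator, at 93.0, 183 and 311 CPM, and Tgfb2 were lower. Of 16 measured VEGF and angiogenesis genes only Angpt1, the Tek ligand, was called, higher at 182, 81.1 and 43.0 CPM, and the other endothelial nuclei held more of it, at 330.0, 171 and 170 CPM.

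Counts of 1 or 2 calls in a short list are read against the 3.22% of all measured genes called higher and the 1.93% called lower. Of 11 measured Notch genes, Notch2 was lower and none higher. Of 17 measured flow-responsive genes, Sox17 was higher and none lower. Of 6 measured cushion mesenchyme genes, Tnc and Col3a1 were lower. Tnc had only 14, 19 and 21 counts in Ncx1-/-, Ncx1+/- and Ncx1+/+, and 57.1% of those in Ncx1+/+ came from 1 nucleus. None of 31 measured cell cycle genes was called in either direction, with medians of 0.13 and 0.10, and the proliferation gene Mki67 stood at 311, 380 and 304 CPM. Of 4 measured erythroid genes, the embryonic globin genes Hba-x, Hbb-y and Hbb-bh1 were lower, with Hbb-y at 66.3, 257 and 136 CPM in Ncx1-/-, Ncx1+/- and Ncx1+/+. Cardiomyocyte nuclei held 249, 714 and 609 CPM of the erythroid list and the selected nuclei 198, 702 and 394 CPM, and the part of free red cell RNA in this was not tested. The macrophage, megakaryocyte, mast cell, epicardial and germ cell lists had 1 measured gene each and the neural crest list 2, and none of these was called.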

How the data were processed

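Nuclei of whole embryonic day 9.5 mouse hearts, microdissected, frozen and pooled (5 hearts per genotype), were sorted and sequenced as 1 library per genotype with the 10x 3.1 chemistry, per the labels' protocols. The values are UMI counts per gene and barcode, deposited by the authors as matrices. The submitters' processing notes name Cell Ranger 6.1.0 and build mm10, and the file headers name version 9.0.0. The sources used here do not say if reads in introns entered the counts. The files held 0 columns of other samples.

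Barcodes with at least 500 genes were kept and doublets were not removed, except as an alternative that leaves out the top 8% of Scrublet scores. Counts were summed per group of nuclei and library and given as CPM of that sum, and ratios carry exact conditional binomial 95% intervals. Shares carry Clopper-Pearson 95% intervals, and a share of 0 allows 3 counts. Intervals and limits cover counting error only, and UMIs of 1 nucleus are not independent of each other. Genes with at least 50 counts over the 3 libraries of the selected nuclei were measured, and the threshold was 1.5-fold with intervals that leave out 1. A nucleus counted as cardiomyocyte with at least 6 of 12 cardiomyocyte genes and at most 1 of the 11 endothelial genes. Members and gene lists were chosen with earlier results of these data known. Named genes were the 6 markers, the 12 highest and 12 lowest genes in Ncx1-/- by the smaller change against both other libraries, up to 15 highest and 10 lowest against other endothelial nuclei, called genes of the lists, and Slc8a1. Rankings skipped predicted and sex-linked genes and those of ribosomes, mitochondria and haemoglobin. Some genes that met these rules are not reported here. Others in the lists were named after their values were seen. The scripts were tested on simulated data. Coordinates come from GENCODE M21 on mm10, in which 27645 of 27998 gene IDs matched. Python 3.11.15 was used with numpy 2.4.6, scipy 1.17.1, pandas 2.3.3, scanpy 1.11.5 and matplotlib 3.10.9, and R 4.3.3 with edgeR 4.0.16 for TMM factors only. Alternatives changed the filters on nuclei and genes, the rule, the scaling and the depth.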

Additional observations from a re-analysis of the deposited data

How the results depend on the processing

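No paired analysis was possible because each genotype has 1 library, and for the same reason no replicate could be left out. Across alternatives, 98 values of the main results stayed near the reported one and 30 moved, and of values of single genes 885 stayed, 54 moved and 1 reversed. With at least 3 of the 4 genes required, shares were 2.32%, 0.320% and 0.379% in Ncx1-/-, Ncx1+/- and Ncx1+/+. Of 2311 genes then measured, 65 were higher and 55 lower in Ncx1-/-, 9 of them hypoxia genes. Set against other endothelial nuclei, 8 were higher and 7 lower. The log2 ratio of Slc8a1 in Ncx1-/- to Ncx1+/+ reversed to 0.68, from 52 and 11 nuclei. Without Grin2c the shares were 5.93%, 2.20% and 1.76%, and 38 genes were lower than in other endothelial nuclei. Thinned to 2000 UMIs, shares were 6.29%, 1.94% and 1.42%. Of 1777 genes then measured, 28 were higher and 32 lower in Ncx1-/-, 8 of them hypoxia genes. Set against other endothelial nuclei, 6 were higher and 9 lower. A fold of 2 gave 74 and 33 genes, 8 hypoxia genes, and 4 and 8 against other endothelial nuclei. With no interval required, 409 were higher and 195 lower. Without nuclei with 6 cardiomyocyte genes, an alternative chosen after seeing the data, 105 of 3818 measured genes were higher in Ncx1-/-. Against other endothelial nuclei, 10 were then higher and 8 lower. The share of calls that were higher was 62.5% in the main result, 52.2% without those nuclei and 46.7% when thinned. It also moved with the scaling of the same 6578 genes. Median-of-ratios size factors gave 178 higher and 150 lower, a share of 54.3%, and TMM factors gave 202 and 133, a share of 60.3%. Thinning and smaller selections leave fewer counts, whereas other scaling leaves the counts as they are. The causes were not tested. The depth of 70 and 82 nuclei in Ncx1+/+ and Ncx1+/- limits genes under about 50 counts.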
